A study of Mus musculus with 6 samples.

Results

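The second step of the oligodendrocyte lineage was described by setting mature oligodendrocytes (label Olig) against committed oligodendrocyte precursors (label COP) of the same mice. Cells were taken by the type label that the authors deposited for each cell. Of the 20151 cells analysed, 5247 carried either label, 4566 of them Olig and 681 COP. The mice were 4 males of the ob/ob strain, which lacks functional leptin and is obese and diabetic, and the cells were dissociated from the hypothalamus. Each mouse was 11 weeks old and had received 3 µg of FGF1 R50E, a variant of fibroblast growth factor 1, into a cerebral ventricle 5 days before it was killed. Each library held the dissociated cells of 1 mouse and was made with the 10x Genomics Chromium 3′ kit. The labelled samples have 1 group in common, so nothing here measures an effect of the treatment, and every value is from treated, leptin-deficient animals. Mice 12 and 37 of the same group had no cells in the table and were not analysed here.

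Oligodendrocytes wrap axons in myelin, a stack of membrane rich in cholesterol and galactolipids that is held together by a few abundant proteins. They arise from dividing precursors (OPC), which carry the PDGF receptor and the proteoglycan NG2. A precursor that commits to the lineage leaves the cycle, switches on Gpr17 and Enpp6, extends many processes, and then either dies or goes on to make sheaths. Myelin genes come on in order: those for the main structural proteins start early, and those for later membrane and metabolic proteins follow in the mature cell.

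Mice 3, 4, 30 and 34 gave 208, 196, 161 and 116 COP cells and 1668, 865, 473 and 1560 Olig cells. Counts of unique molecular identifiers (UMIs, counted RNA molecules) were summed per mouse and label, which gave between 208955 and 498365 UMIs per COP sum and between 486049 and 2319177 per Olig sum. A COP cell held a median of 2402.5 UMIs in mouse 3 and 2342.5 in mouse 34, but 1219.5 in mouse 4 and 1081 in mouse 30. An Olig cell held a median of 1304.5, 948, 894 and 1089 UMIs in mice 3, 4, 30 and 34, fewer than a COP cell in each mouse. Between 0 and 6 cell barcodes were shared by the Olig and COP cells of any pair of libraries. Levels below are UMIs per 1000000 of the scaled total of a sum, given in the order mice 3, 4, 30 and 34, and means are ± SD over 4 mice. A level is a share of the RNA captured from a cell type, so it does not tell how many molecules a cell held.

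The labels were checked against markers of the lineage. COP sums had high levels of Gpr17, Enpp6, Itpr2 and Bmp4, which mark committed and newly formed oligodendrocytes. Pdgfra, the PDGF receptor that defines dividing precursors, had 16 UMIs in all COP cells together, a mean level of 12.4, against 1209 in OPC. Cspg4, which encodes NG2, had 27 UMIs in COP and a level of 19.7 there against 356 in OPC. The COP label therefore covered cells past the Pdgfra-positive precursor, with markers of the newly formed stage among them. How the authors assigned the labels is not given in the sources used here, and labels of this kind rest on the same counts. The tests below therefore describe how the labelled types differ and are no independent evidence that they do.

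Of 16411 listed genes, 6209 passed a filter on low counts and were tested. To be called, a gene needed a Benjamini-Hochberg adjusted p under 0.05 by edgeR's quasi-likelihood test together with a log2 fold change above 1 or below -1, which is 2-fold. By this rule 1683 genes were called, 27.1% of those tested: 855 (13.8%) were higher in Olig and 828 (13.3%) were lower. The direction was the same in 4 of 4 mice for 1653 of them. The levels of the 4 Olig sums lay wholly above or wholly below those of the COP sums for 2734 genes, 44% of those tested. The median log2 fold change of all genes tested was 0.01. When levels were taken relative to total UMIs alone, that median moved to -0.27 and the called genes split into 636 higher and 1188 lower. Calls higher in Olig that pass the 2-fold limit by less than this shift therefore depend on the scaling. Among genes named with their values below, these were Sc5d (0.91), Fa2h (0.77) and Fgfr3 (0.84). On the lower side, genes short of the limit by less than this shift can be called with total UMIs alone.

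**Figure D1:**
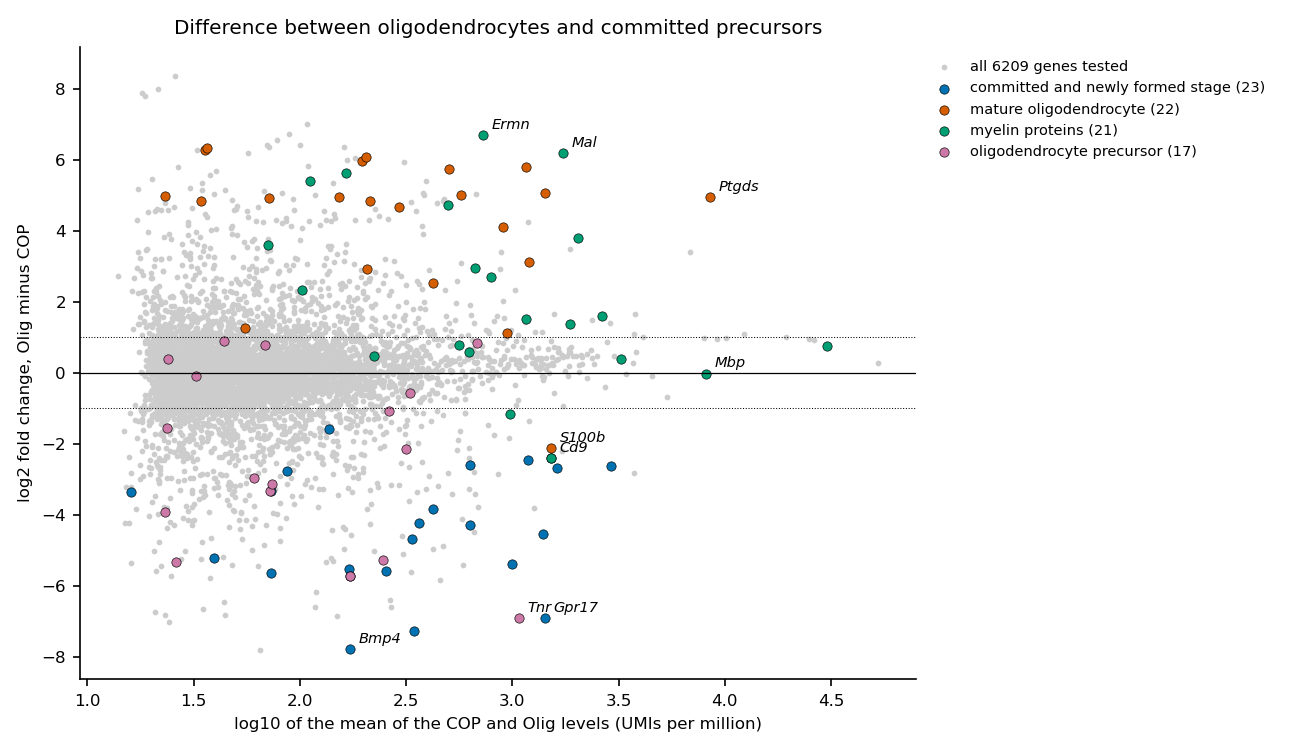
Each point is 1 of 6209 genes tested, with the log10 mean level in COP and Olig (UMIs per 1000000) on the x axis and the log2 fold change, Olig minus COP, on the y axis. Dotted lines mark 2-fold. Genes of the committed list (23) lie below zero, while 21 of 22 mature genes lie above the upper line, and Mbp lies between the lines at a high level.

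Mitochondrial RNA and RNA typical of other cell types also had higher levels in the Olig sums. The counts of calls in this paragraph stand beside 13.8% called higher and 13.3% called lower over all genes tested. All 13 mitochondrially encoded genes had a positive log2 fold change, from 0.90 to 1.22, 7 of them were called higher, and their summed level was between 137705 and 169481 in Olig and between 69727 and 91505 in COP. Of 8 astrocyte markers, 8 were positive and 4 were called higher, with a median of 1.06 and a summed level of 2385 to 3237 in Olig against 1114 to 1682 in COP. The 6 tested microglial markers of 8 had a median of 1.07, with 4 called higher and a summed level of 221 to 345 in Olig against 80.7 to 254 in COP. The 3 tested neuronal markers of 8 were all called higher, with a median of 1.23, and the list summed to 280 to 462 in Olig and 112 to 283 in COP. Red cell markers had a median of -0.49 with 3 of 5 tested, and endothelial markers summed to 59.9 to 99.99 in Olig and 44.2 to 129 in COP. The 1 endothelial marker tested of 7 was called lower at -1.04. With total UMIs alone the calls came to 0 mitochondrial genes, 0 astrocyte, 0 microglial and 1 neuronal marker, with all of these genes still positive. Without mouse 3 the calls were 7 astrocyte and 2 microglial markers, without mouse 34 there was 1 microglial call, and without mouse 4 there were 11 mitochondrial calls. No member of the mitochondrial, astrocyte, microglial or neuronal lists was at 0 in either type, and the astrocyte sum in cells labelled Astro was 18741. A difference near 1 on the log2 scale was thus also seen in markers of other cells under TMM scaling, and its part in the results below was not tested. The cells labelled Endo, which carry endothelial markers and should lack myelin RNA, give a background level for myelin genes. For other genes the Endo value is only the level in another cell type, which may express the gene itself. The 82 tested genes of cytosolic ribosomal proteins lay between -0.90 and 0.74 with a median of 0.27, and the 82 tested nuclear genes of oxidative phosphorylation had a median of 0.19.

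The genes of the committed and newly formed stage were lower in Olig. Of 27 genes on the list, 23 passed the filter and 23 were called lower, beside 13.3% of all genes tested, with a median log2 fold change of -4.29. Gpr17, a receptor that holds cells at the premyelinating stage, had levels of 3148, 2459, 2619 and 3119 in COP and of 20.3, 34.9, 25.6 and 20.9 in Olig. All COP sums were far above all Olig sums, a fall by 6.91 on the log2 scale (SE 0.13, adjusted p = 8.7e-55, 121-fold). The Olig level of Gpr17, 25.4 ± 6.73, was close to the 17.5 of the Endo sums.

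Enpp6, a choline phosphodiesterase used to mark cells that have just begun to differentiate, was at 790, 662, 654 and 649 in COP and at 47.5, 41.4, 32.6 and 23.6 in Olig. In OPC it had 3 UMIs in all, and the Olig level still exceeded the 1.03 of the Endo sums. Bmp4, which encodes a secreted bone morphogenetic protein, was at 279, 382, 270 and 440 in COP, while 7 UMIs were counted in all Olig cells. Its level in OPC was 2.02 ± 4.04, and 7.66 in Endo. Neu4, a sialidase that trims gangliosides, fell from 683 ± 31.1 to 5.40 ± 3.37.

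Fyn encodes a Src-family kinase that links axonal contact to process growth and to local Mbp translation. It was at 2540, 2403, 2948 and 2812 in COP and at 117, 119, 121 and 103 in Olig, a fall by 4.53 (SE 0.10, adjusted p = 1.8e-50). Sirt2, a tubulin deacetylase of the myelin membrane, fell by 2.63 but kept a level of 809 ± 115 in Olig, above the 213 of Endo. Bcas1, another marker of the early myelinating cell, went from 1999 ± 93.0 to 361 ± 47.8. Tcf7l2, a transcription factor of the Wnt pathway that is needed for differentiation, went from 793 ± 136 to 57.5 ± 3.33. Itpr2, a calcium channel of the endoplasmic reticulum, and Frmd4a, a scaffold protein, had log2 fold changes of -4.67 and -5.38. Nfasc, whose product is an adhesion molecule of the paranode, fell by 2.68, with 434 ± 54.6 left in Olig.

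**Figure D2:**
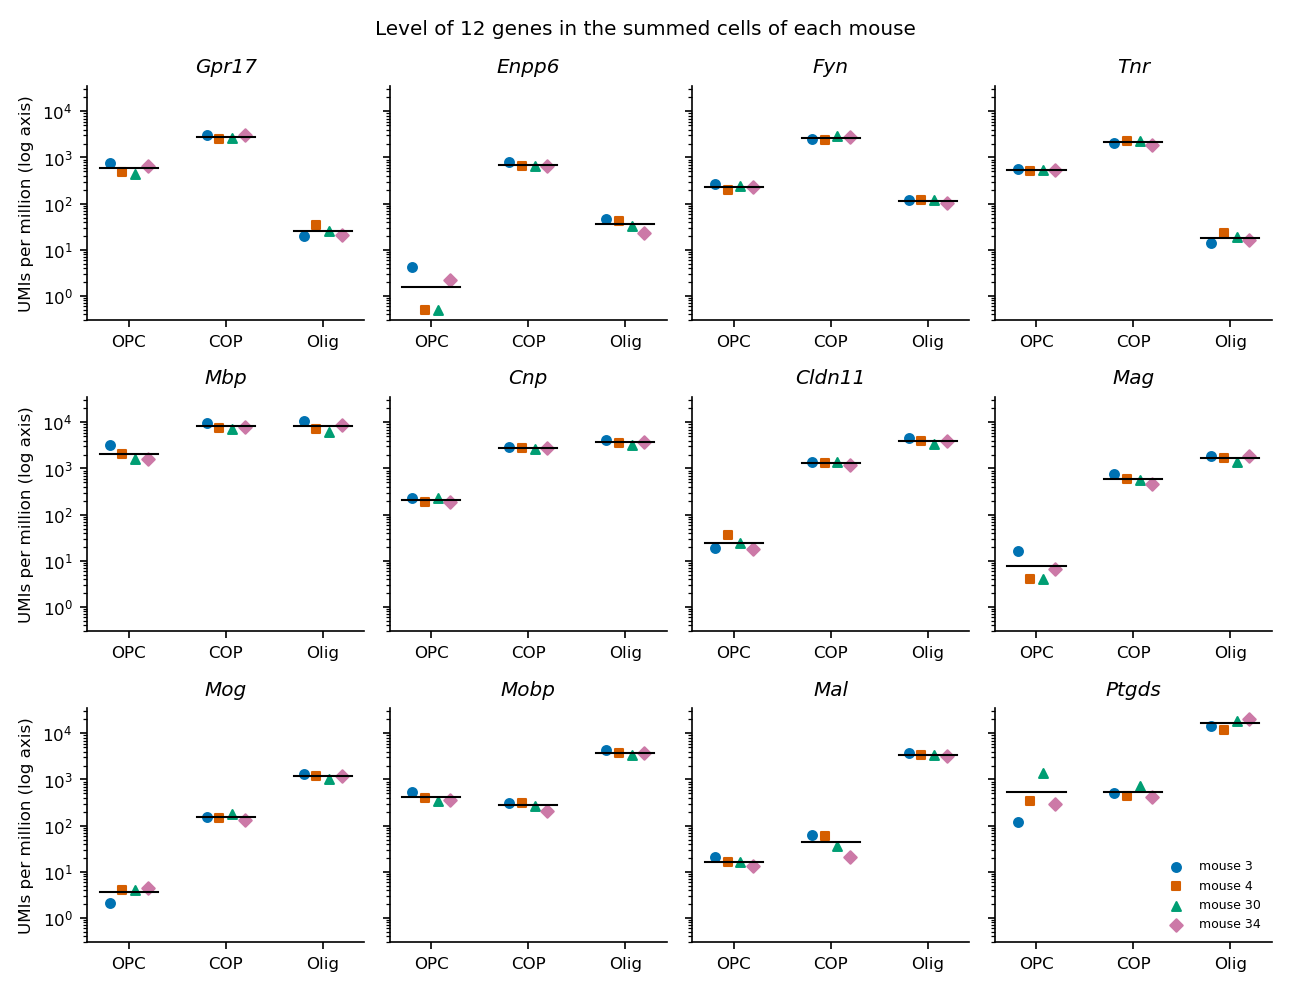
Levels of 12 genes in the summed OPC, COP and Olig cells of each mouse, in UMIs per 1000000 on a log axis. Points are mice, bars are means, and a level of 0 is drawn at 0.5. Gpr17, Enpp6, Fyn and Tnr are highest in COP, Mbp, Cnp and Cldn11 are already high in COP, and Mobp, Mal and Ptgds are highest in Olig.

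Of 24 genes of the dividing precursor, 17 were tested, 11 were called lower in Olig (13.3% of all genes tested), 0 were called higher and the median was -2.14. The log2 fold change was positive for 4 of the 17, and 3 of these, named after their values were seen, passed the adjusted p under the 2-fold limit. They were Nnat at 0.84 (adjusted p = 1.4e-11), Cspg5 at 0.90 (adjusted p = 0.0012) and Ednrb at 0.77 (adjusted p = 0.00039). Nnat is also on the list of tanycyte markers, as its 1 tested member. That list summed to 617 to 1256 in Olig and 307 to 876 in COP. Ptprz1, a receptor phosphatase of precursors, was at 2164 ± 114 in OPC, 350 ± 23.2 in COP and 174 ± 43.5 in Olig. Its log2 fold change of -1.08 was under the 2-fold limit without mouse 3 (-0.93) and without mouse 34 (-0.998). The same held with sums thinned to equal totals (-0.93) and in mice 4 and 30 alone (-0.70), and without the cells of highest doublet score it was -1.51. Lhfpl3 and Cacng4, which encode small membrane proteins, had log2 fold changes of -3.33 and -2.95. Tnr and Sox6, on the same list, had higher levels in COP than in OPC, a difference that was not tested here. Tnr, which encodes the matrix protein tenascin-R, was at 530 ± 15.4 in OPC and at 2036, 2282, 2299 and 1877 in COP, and then at 14.4, 22.9, 18.6 and 16.4 in Olig (a fall by 6.90, SE 0.13, adjusted p = 4.7e-55). Sox6, a repressor of myelin genes, was at 246 ± 25.8 in OPC, 480 ± 91.7 in COP and 12.6 ± 2.05 in Olig. Vcan, the proteoglycan versican, had its highest level in OPC, with 483 ± 103, then 334 ± 12.6 in COP and 29 UMIs in all Olig cells.

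Genes of the mature cell stood on the other side. Of 24 listed genes 22 were tested, 21 were called higher in Olig, beside 13.8% of all genes tested, and the median log2 fold change was 4.92. Ptgds, which encodes prostaglandin D synthase, was at 523, 448, 741 and 422 in COP and at 14159, 12000, 19008 and 20849 in Olig. The lowest Olig sum was many times the highest COP sum, a difference of 4.94 (SE 0.11, adjusted p = 4.5e-50, 30.6-fold), and the COP level lay below the 752 of Endo. Car2, a carbonic anhydrase, was at 44.2, 49.4, 32.0 and 34.9 in COP and at 2636, 2252, 2325 and 1850 in Olig. Trf, which encodes the iron carrier transferrin, went from 80.4 ± 26.7 to 2779 ± 345 and Apod, a lipid-binding apolipoprotein, from 34.2 ± 11.6 to 1108 ± 115. For Car2 and Apod the COP level was below that of Endo, which was 116 and 201.

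Other mature genes serve metabolism. Aspa, which cleaves N-acetylaspartate and frees acetate for lipid synthesis, had 8 UMIs in COP against 2068 in Olig, and its level rose to 407 ± 39.3. Qdpr, which regenerates tetrahydrobiopterin, was higher by 4.11 and Il33, an alarmin kept in the nucleus, by 4.83. Ndrg1, a stress-responsive gene of myelinating cells, was higher by 5.73, with a level of 989 in Olig. Klk6, a protease of a mature subset, had 309 UMIs in Olig and 2 in COP and did not pass the filter. The exception on the list was S100b, a calcium-binding protein, which was at 2601, 2393, 2372 and 2532 in COP and at 673, 620, 419 and 558 in Olig, a fall by 2.12 (SE 0.09, adjusted p = 4.0e-34).

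Myelin protein genes divided into those already high in COP and those that were not. Of 22 listed, 21 were tested, 13 were called higher in Olig and 2 lower, beside 13.8% and 13.3% of all genes tested, with a median of 1.60. Mbp, which encodes the basic protein that zips the cytoplasmic faces of myelin together, was at 9870, 7734, 7286 and 7789 in COP and at 10748, 7046, 6165 and 8721 in Olig. The groups overlapped, with 2 mice higher in Olig and 2 lower, and the log2 fold change was -0.02 (SE 0.08, adjusted p = 0.86). With total UMIs alone the log2 fold change of Mbp was -0.30 with an adjusted p of 0.00016, so whether it passes the test depends on the scaling. Mbp stood at 2110 ± 733 in OPC, close to the 2102 of Endo.

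Cnp, a phosphodiesterase that keeps cytoplasmic channels open, was at 2815 ± 111 in COP and 3674 ± 363 in Olig, 0.38 higher (SE 0.08, adjusted p = 2.3e-05), which was lost with total UMIs alone (0.10, adjusted p = 0.20). Mbp and Cnp thus differed by less than 2-fold at this step.

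The next group was present in COP and higher in Olig. Mag, an adhesion molecule of the innermost wrap, was at 753, 606, 576 and 467 in COP and at 1864, 1675, 1412 and 1902 in Olig, a 2.85-fold difference (1.51, SE 0.09, adjusted p = 1.2e-23). Cldn11, which forms the tight junctions of myelin, went from 1320 ± 89.1 to 3986 ± 458. Mog, a protein of the outer surface, was at 158, 148, 183 and 133 in COP and at 1293, 1198, 1042 and 1171 in Olig (2.95, SE 0.11, adjusted p = 5.2e-36), with 3.64 ± 1.07 in OPC and 20.9 in Endo. Tspan2, a tetraspanin, was higher by 2.69, and Cryab, a small heat shock protein abundant in myelin, by 1.39.

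A last group had low levels before the mature stage. Mobp, a basic protein of compact myelin, was at 315, 313, 270 and 209 in COP and at 4334, 3695, 3439 and 3761 in Olig (3.79, SE 0.10, adjusted p = 6.4e-45). The COP level was below the 414 of OPC and the 419 of Endo. Mal, a lipid raft protein, was at 63.4, 59.3, 36.6 and 20.9 in COP and at 3836, 3357, 3318 and 3175 in Olig, 72.3-fold apart. Ermn, which encodes the actin-binding protein ermin of late myelination, went from 19 UMIs in COP to 7453 in Olig (6.69, SE 0.17, adjusted p = 2.4e-46), and Opalin, a sialylated membrane protein, from 33.1 ± 19.1 to 967 ± 164. The gap junction genes parted, since Gjb1 was higher by 5.63 while Gjc3 fell by 1.16. Cd9, a tetraspanin that is also on the committed list, fell from 2578, 1784, 3652 and 2226 to 475, 534, 463 and 398. Pmp22, better known from the peripheral nerve, was higher by 5.40.

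The promoter sequences of 4 genes are shown as examples of both directions. The windows are from RefSeq on build GRCm38.p6, run from 250 bases before to 50 after the start of the gene, and are printed on the strand of the gene. Ermn and Mobp stand for genes higher in Olig, Tnr and Enpp6 for genes lower, and they were chosen with their values known. Capitals mark exact matches, on either strand, to ACAAAG or ACAATG, the letters that SOX proteins such as SOX10 and SOX6 favour, or to CTGGCAC, the core letters bound by MYRF, which had no match in these windows.
Ermn (chr2:58052815-58053114, minus strand): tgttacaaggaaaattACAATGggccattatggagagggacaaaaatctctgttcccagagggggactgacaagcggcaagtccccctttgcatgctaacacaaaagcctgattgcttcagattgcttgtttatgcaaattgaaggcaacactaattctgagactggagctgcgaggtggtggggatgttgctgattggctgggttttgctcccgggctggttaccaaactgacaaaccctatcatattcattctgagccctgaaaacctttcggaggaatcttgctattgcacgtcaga
Mobp (chr9:120149492-120149791, plus strand): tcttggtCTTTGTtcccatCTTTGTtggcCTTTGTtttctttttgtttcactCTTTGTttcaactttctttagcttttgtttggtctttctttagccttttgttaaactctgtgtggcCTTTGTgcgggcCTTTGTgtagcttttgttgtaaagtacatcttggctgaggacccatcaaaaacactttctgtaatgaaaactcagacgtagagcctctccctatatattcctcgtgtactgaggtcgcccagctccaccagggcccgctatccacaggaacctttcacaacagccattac
Tnr (chr1:159523519-159523818, plus strand): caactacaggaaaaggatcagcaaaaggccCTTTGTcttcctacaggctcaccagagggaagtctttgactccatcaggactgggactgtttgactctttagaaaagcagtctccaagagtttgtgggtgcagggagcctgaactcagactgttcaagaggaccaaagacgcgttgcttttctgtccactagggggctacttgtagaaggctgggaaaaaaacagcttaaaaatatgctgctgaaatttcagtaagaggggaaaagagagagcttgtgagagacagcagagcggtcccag
Enpp6 (chr8:46986637-46986936, plus strand): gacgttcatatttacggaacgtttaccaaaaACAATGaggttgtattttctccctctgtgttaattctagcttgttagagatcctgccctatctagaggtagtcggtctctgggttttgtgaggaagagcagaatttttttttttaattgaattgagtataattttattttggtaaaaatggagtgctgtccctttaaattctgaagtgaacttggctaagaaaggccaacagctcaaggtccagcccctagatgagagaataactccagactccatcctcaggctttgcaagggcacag

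The Mobp window held 6 matches to ACAAAG, all read on the opposite strand as CTTTGT and all upstream of the start, and 1 of 32851 windows held as many. Ermn and Enpp6 each held 1 match to ACAATG and Tnr 1 match to ACAAAG. Among all windows 18.7% held ACAAAG, 12.6% held ACAATG and 5.01% held CTGGCAC. Of genes called with a level of at least 100 in the higher type, 320 of 413 higher in Olig and 280 of 348 lower had windows. ACAAAG was in 17.0% of the windows of the higher genes and 15.3% of those of the lower genes, ACAATG in 9.87% and 9.59%, and CTGGCAC in 5.46% and 4.66%. A match is a run of letters and was not tested as a site.

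Transcription factors of the lineage went both ways. Of 42 listed, 32 were tested, 5 were called higher and 10 lower, beside 13.8% and 13.3% of all genes tested, and the median was 0.05. Myrf, which drives myelin genes, was at 328, 263, 311 and 269 in COP and at 330, 279, 337 and 357 in Olig (0.14, SE 0.11, adjusted p = 0.26), with 14.6 ± 4.52 in OPC. With total UMIs alone the log2 fold change of Myrf was -0.14, so no direction is given for it. Sox10 had a log2 fold change of -0.48 (SE 0.10, adjusted p = 4.4e-05), Olig2 of -0.91 (SE 0.12, adjusted p = 3.1e-10) and Olig1 of 0.46 (SE 0.09, adjusted p = 1.7e-05), all under the 2-fold limit. For Olig1 the adjusted p was 0.082 with total UMIs alone. Myrf, Sox10 and Olig2 were picked out after their values were seen.

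Sox4 was at 1078, 701, 786 and 1012 in COP and at 16.3, 14.2, 11.6 and 19.6 in Olig, 57.3-fold apart. Sox2 fell by 2.06 and Sox8 had a log2 fold change of -1.28, while Sox9, named after its value was seen, was at 0.92 (adjusted p = 4.5e-05) and under the limit. Nkx2-2, which is needed for timely differentiation, went from 197 ± 64.7 to 41.0 ± 10.9, and its relative Nkx6-2, a factor of myelinating cells, went from 28.4 ± 6.37 to 151 ± 25.6. Of the zinc finger genes Zfp488 and Zfp365 had log2 fold changes of -2.75 and -1.93 and Zfp536 was higher by 2.56. Etv1, an ETS factor, was at 26.9, 13.2, 32.0 and 20.9 in COP and at 724, 585, 612 and 647 in Olig (4.81, SE 0.17, adjusted p = 1.0e-37), while OPC had 164 ± 25.4, so the lowest level was that of COP. Nfix, a nuclear factor I gene, had the same order, with 182 ± 15.6, 68.9 ± 13.0 and 303 ± 10.0 in OPC, COP and Olig.

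Cholesterol synthesis limits the rate of myelin growth. Of 20 enzymes 18 were tested, 2 were called higher and 3 lower, beside 13.8% and 13.3% of all genes tested, and the median was 0.23. Acat2, which starts the pathway, was at 74.9, 82.3, 101 and 69.8 in COP and at 31.2, 34.9, 32.6 and 39.3 in Olig, so the types did not overlap, and it was called lower (adjusted p = 4.7e-07). Mvd, a later mevalonate enzyme, fell by 1.10 but was under the limit without mouse 34 (-0.96), and without mouse 3 the list had 1 call lower. Hmgcs1, the next early enzyme, was 0.80 higher and under the limit, and the late enzymes Ebp and Sc5d were higher by 1.74 and 1.19, the latter at 0.98 without mouse 4. Genes of sterol regulation and transport had a median of 0.84, with 6 of 13 tested called higher and 1 lower beside the same shares of all genes, and 3 higher with total UMIs alone. Among these, the efflux pump gene Abcg1 was higher by 2.72 and the regulator Srebf1 by 1.73. Apoe was higher by 1.39, with 964 ± 247 in Olig and 991 ± 327 in OPC.

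Of 26 enzymes of galactolipids and long fatty acids, 24 were tested, 8 were called higher and 0 lower, beside 13.8% and 13.3% of all genes tested, the median was 0.61 and 5 had a negative log2 fold change. With total UMIs alone 5 were called higher and 1 lower. Cers2, the ceramide synthase for very long chains, was at 69.2, 95.5, 114 and 97.7 in COP and at 491, 412, 409 and 450 in Olig (2.32, SE 0.14, adjusted p = 6.1e-25). Elovl1, which lengthens saturated chains, was higher by 2.33, Fa2h, which adds the hydroxyl group of myelin lipids, by 1.05 (0.92 without mouse 4), and the desaturase genes Scd2 and Scd1 by 1.39 and 1.86. Ugt8a, which makes galactosylceramide, was at 484 ± 56.6 in COP and 767 ± 28.6 in Olig, 0.67 higher and under the limit (adjusted p = 3.2e-09). Gal3st1, which adds the sulfate of sulfatide and was named after its value was seen, had the lowest log2 fold change of the list, -0.82 (adjusted p = 8.0e-06), also under the limit.

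**Figure D3:**
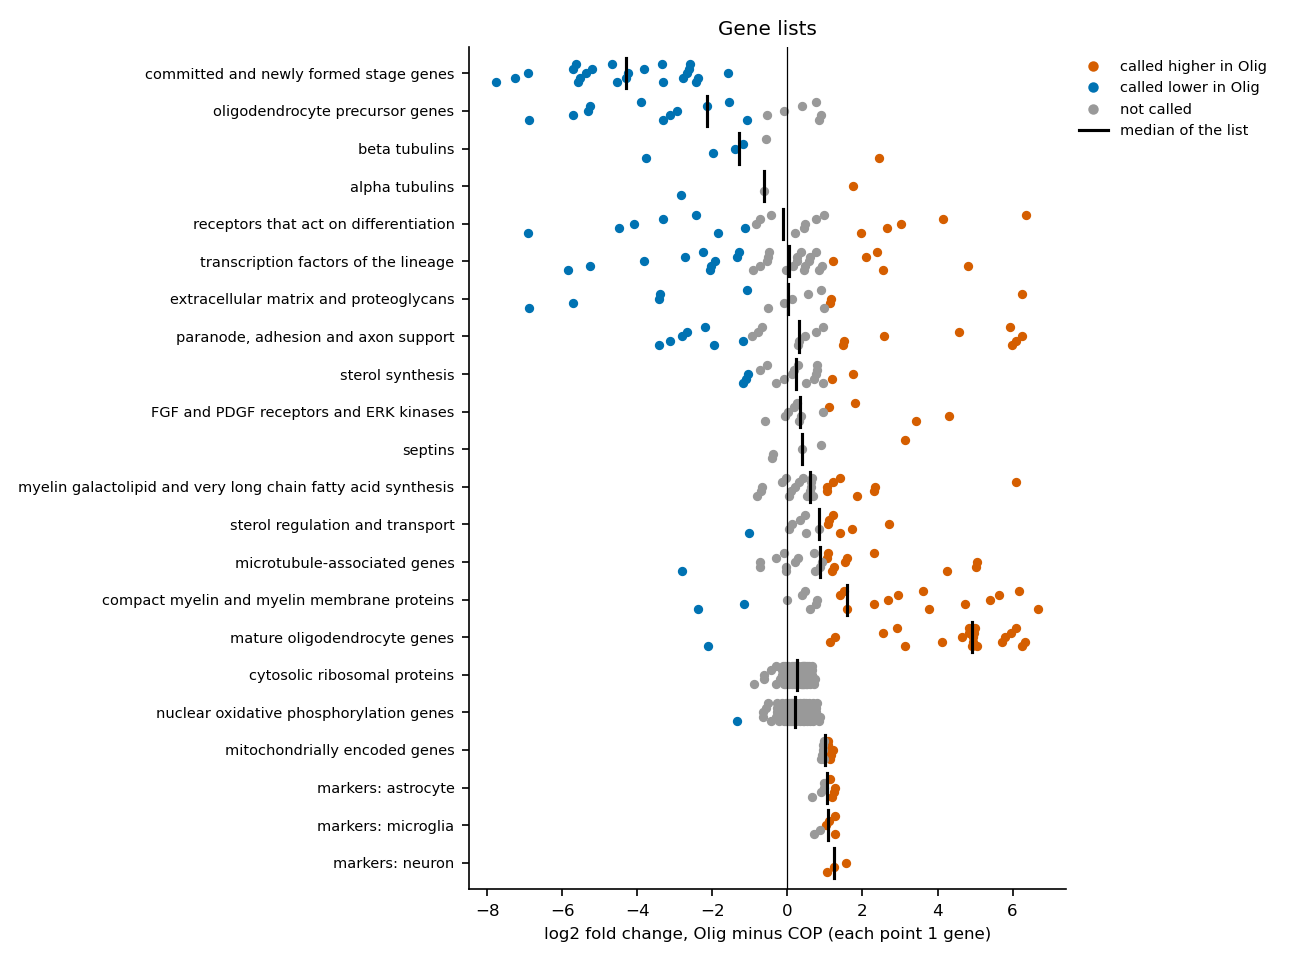
Log2 fold change, Olig minus COP, of each tested gene (1 point) in 22 lists, coloured by call, with the median of each list as a bar. The committed list has a median of -4.29 and the mature list of 4.92, while mitochondrial genes and astrocyte, microglial and neuronal markers cluster near 1.

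Most beta tubulin genes were lower, with exceptions. Of 6 tested beta tubulins of 8, 4 were called lower and 1 higher, and of 3 alpha tubulins of 6, 1 was lower and 1 higher, beside 13.3% lower and 13.8% higher over all genes tested. Tuba1a, the alpha tubulin of growing processes, was at 5982, 5521, 8356 and 6261 in COP and at 954, 1004, 916 and 753 in Olig, a fall by 2.83 (SE 0.09, adjusted p = 1.8e-40). Tubb2b, Tubb5, Tubb2a and Tubb4b had log2 fold changes of -3.79, -1.99, -1.40 and -1.18. Tubb4a, the beta tubulin of oligodendrocytes, was at 71.9 ± 9.81 in OPC, 1870 ± 246 in COP and 1259 ± 96.0 in Olig, a log2 fold change of -0.57 that is under the limit. Tubb3, otherwise a neuronal tubulin, was higher by 2.44 at 109 ± 27.4, with 21.9 in Endo, and Tuba4a by 1.74. Near-identical tubulin genes can share reads, so values of single paralogs are uncertain.

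Of 24 genes of proteins that act on microtubules 23 were tested, 10 were called higher and 1 lower, with a median of 0.88, beside 13.8% and 13.3% of all genes tested. With total UMIs alone 6 were called higher and 3 lower. Stmn1, whose product binds free tubulin, was at 106, 165, 137 and 87.2 in COP and at 2690, 2253, 1846 and 2202 in Olig (4.25, SE 0.12, adjusted p = 3.4e-43), and OPC had 345 ± 63.1. Stmn4 was higher by 5.04, and Tppp, which nucleates microtubules in sheaths, and Tppp3 by 1.54 and 5.06. Map1b, a protein of growing neurites, was the one called lower, at 1152 ± 22.4 in COP and 168 ± 15.5 in Olig.

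Of 31 actin genes 25 were tested, with 6 called higher and 5 lower (13.8% and 13.3% of all genes tested), and 9 lower with total UMIs alone. Marcks, which tethers actin to the membrane, was at 2509, 2245, 2350 and 2274 in COP and at 144, 202, 179 and 158 in Olig, a fall by 3.81. Wasf1, which starts branched actin, and Actg1 had log2 fold changes of -2.94 and -1.37, while Actb, at -0.67, overlapped between the types. Gsn, which severs filaments, was higher by 2.93 (51.7 ± 13.0 and 362 ± 57.7). Of 5 tested septins, which form the filaments that keep compact myelin from folding outward, Sept4 alone was called, a share near the 27.1% of all genes tested: 317, 234, 210 and 209 in COP and 2546, 1923, 1770 and 2332 in Olig. Sept7, Sept8 and Sept2 were at 0.37, 0.90 and -0.39, all under the limit, and Sept7 was at 0.09 with total UMIs alone. Of the membrane glycoprotein pair, Gpm6b was higher by 1.66 and Gpm6a was at 0.29 (adjusted p = 0.046), which was lost in most alternatives.

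Receptors and signalling genes are of interest because the injected protein is an FGF. Of 18 FGF, PDGF and ERK pathway genes, 12 were tested, 4 were called higher and 0 lower, against 13.8% and 13.3% of all genes tested, with a median of 0.33. Fgfr2, the FGF receptor that promotes myelin thickness, was at 15.4, 19.8, 9.14 and 3.49 in COP and at 266, 235, 223 and 289 in Olig (4.31, SE 0.22, adjusted p = 6.8e-28), with 5.21 ± 5.18 in OPC and 13.7 in Endo. Fgf1 itself, the gene of the parent ligand, was at 11.5, 16.5, 13.7 and 6.98 in COP and at 135, 125, 109 and 145 in Olig (3.42, SE 0.25, adjusted p = 7.3e-20). Fgfr3 was higher by 1.11 at 88.7 ± 24.0 in Olig, and it was under the 2-fold limit without mouse 30 (0.97), without the cells of highest doublet score (0.75) and without those of lowest silhouette score (0.79). Map2k1, which encodes the kinase MEK1, was higher by 1.79, and Mapk3, which encodes ERK1, was 0.95 higher and under the limit. Of 10 ERK response genes 3 passed the filter. Spry2, a feedback inhibitor, was higher by 2.66, Epha4, an ephrin receptor, fell by 2.30, and Phlda1 was at 0.27. Most of the response list was too low to test.

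Of 20 tested receptors that act on differentiation (30 listed), 5 were called higher and 7 lower, beside 13.8% and 13.3% of all genes tested. Gpr37, a negative regulator of late differentiation, was at 38.4, 59.3, 36.6 and 27.9 in COP and at 758, 710, 653 and 729 in Olig. Lpar1, the lysophosphatidic acid receptor, was higher by 2.65, Adora1, an adenosine receptor, by 3.03 and Erbb3, a neuregulin receptor, by 1.97. The AMPA receptor gene Gria2 was at 880 ± 61.2 in OPC, 1250 ± 202 in COP and 62.9 ± 21.8 in Olig, a fall by 4.49. Lingo1 and Tnfrsf21, both brakes on differentiation, had log2 fold changes of -2.45 and -4.09, and the thyroid hormone receptor gene Thra one of -1.14. Of 29 Notch, Wnt and BMP genes 11 were tested, and 3 were called higher and 3 lower. Smad7, an inhibitor of BMP and TGF-beta signals that sustains myelination, was higher by 2.05, while Bmp4 and Tcf7l2 were lower as given above.

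Of 23 tested paranode, adhesion and axon support genes, 8 were called higher, 7 were called lower and 8 were not called, where 13.8% and 13.3% of all genes tested were called higher and lower. Cntn2, which encodes the juxtaparanodal contactin TAG-1, had 13 UMIs in COP and was at 610, 605, 586 and 625 in Olig. Epb41l3, a band 4.1 scaffold protein of the paranode, was at 40.3, 16.5, 18.3 and 31.4 in COP and at 766, 589, 619 and 723 in Olig, while its relative Epb41l2 went from 1219 ± 28.9 to 116 ± 12.0. Cadm1 and Cadm2, adhesion molecules of the synaptic type, had log2 fold changes of -1.97 and -2.81, and the perineuronal proteoglycan gene Bcan fell by 3.41.

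Of 14 iron handling genes, Trf among them, 7 were tested, 3 were called higher and 1 lower, beside 13.8% and 13.3% of all genes tested. Fth1, the ferritin heavy chain that oligodendrocytes secrete, was at 936, 2219, 1056 and 733 in COP and at 10235, 20137, 9887 and 9728 in Olig (3.39, SE 0.09, adjusted p = 1.4e-44), with mouse 4 highest in both types. Tfrc, the transferrin receptor, was higher by 1.85 at 66.2 ± 33.5 in Olig, and Ireb2, an iron regulatory protein, fell by 1.47. Immediate early and heat shock genes, which answer quickly to stimuli, had a median of 1.10 with 6 of 11 tested called higher and 1 lower beside the same shares, and 3 called higher without mouse 3. Hsp90aa1 was at 615 ± 68.0 in COP and 1668 ± 277 in Olig, and Fos at 86.0 ± 36.1 and 286 ± 60.3. The part of handling in these values was not tested.

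Few genes of division could be measured. Of 23 cell cycle genes 3 passed the filter, and 2 of them, Cdk4 (302 ± 57.1 and 55.2 ± 9.27) and Hmgb2 (78.7 ± 11.6 and 28.3 ± 5.28), were called lower in Olig, beside 13.3% of all genes tested. With 3 tested, the list is too small to be read as a whole. Mki67 had 3 UMIs and Top2a 0 in all COP cells together, against 498365 UMIs in the deepest COP sum alone. Of 12 cell cycle inhibitors 6 were tested, 5 of them were positive and the median was 0.74. Btg1, at -1.10, was the 1 called, beside 27.1% of all genes tested.

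Genes of the largest differences were found on and off these lists. The 15 largest rises among genes with a level of at least 100 in Olig took in Spock1, a testican, with 1068 UMIs in Olig and 2 in COP (a ratio of 145, exact 95% counting interval 40.1 to 1199), Slc24a2, a sodium, calcium and potassium exchanger (6.06), Plekhh1 (6.36), Ppp1r14a, an inhibitor of myosin phosphatase (5.96), Tnfaip6, a hyaluronan-binding protein (5.98), and S1pr5, a receptor for a sphingosine phosphate, with 662 and 2 UMIs (a ratio of 89.9, interval 24.8 to 744). The 15 largest falls took in Slc1a1, a glutamate transporter (from 529 ± 30.3 to 5.64 ± 2.12), Ppfibp1, a liprin (-6.38), Trio, a guanine nucleotide exchange factor (-5.62), Kif19a, a kinesin (-5.65) and Ust, a uronyl sulfotransferase (-5.58). Kif19a and Ust are on the committed list, and from the same list Mycl, a MYC family gene, was at -5.53 and Lims2, an adhesion adaptor, at -4.29.

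The shares of both lists were also taken cell by cell. In each COP cell, 681 of 681, committed list genes took a larger percent of the UMIs than mature list genes, while this was so in 19 of 4566 Olig cells (0.416%) and in 809 of 1261 OPC. The median COP cell gave 2.93%, 2.59%, 2.90% and 2.83% of its UMIs to the committed list and 0.433%, 0.428%, 0.432% and 0.391% to the mature list. In the COP sums, S100b alone made up 2475 of the 4392 that the mature list summed to on average. The median Olig cell gave 0.230%, 0.203%, 0.173% and 0.201% to the committed list and 2.50%, 2.13%, 2.43% and 2.64% to the mature list. Since the labels rest on the same counts, this describes how sharply the labels part the cells, and it is no separate evidence.

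**Figure D4:**
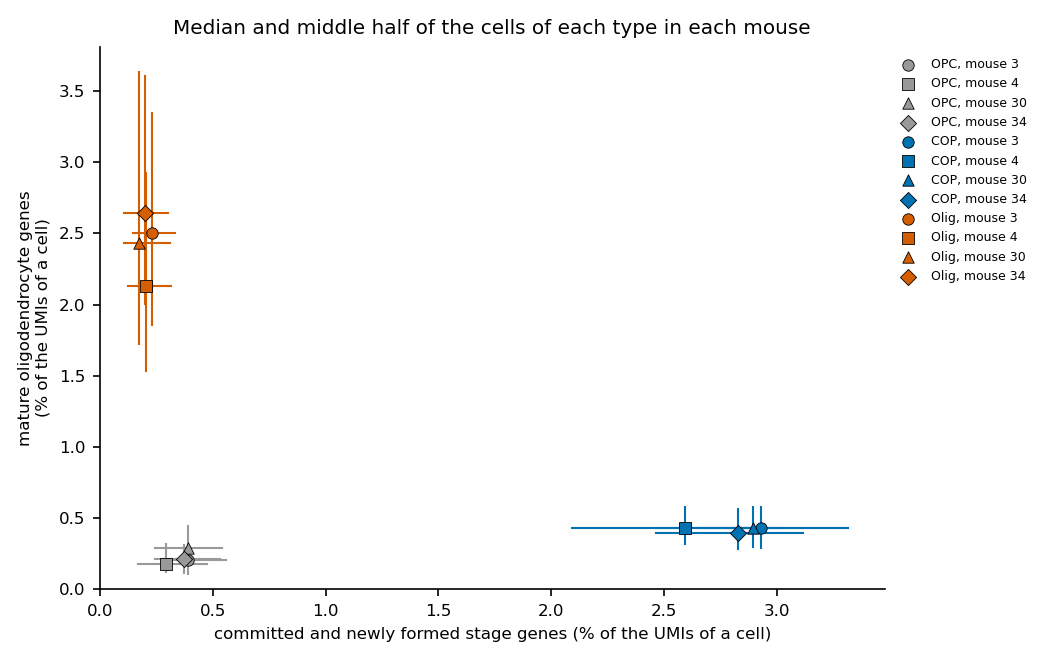
Percent of the UMIs of a cell in the committed list (x axis) and the mature list (y axis), for each type and mouse. Points are medians over cells and lines span the interquartile range of the cells. COP medians lie between 2.59% and 2.93% on the x axis, and Olig medians between 2.13% and 2.64% on the y axis.

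The number of COP cells per Olig cell differed between mice. COP cells were 11.1%, 18.5%, 25.4% and 6.92% of COP and Olig cells together, with exact 95% binomial intervals of 9.70% to 12.6%, 16.2% to 20.9%, 22.05% to 29.0% and 5.75% to 8.24%. These intervals do not overlap, but they cover counting error only and leave out differences in dissociation and capture between libraries. Mice 4 and 30, with the larger shares, were also those with fewer UMIs per COP cell, and the part of this in the shares was not tested.

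The difference between the types was compared between mice. Over 1133 genes with a level of at least 100 in both types, the log2 ratio of Olig to COP had a median SD over mice of 0.20. The ratio of Cnp was 0.46, 0.32, 0.26 and 0.47. The widest were Hbb-bs, a haemoglobin gene of red cells, and Sgk1, a kinase induced by glucocorticoids. For Sgk1 the COP levels were alike, 569, 553, 576 and 610, while the Olig levels were 258, 375, 1763 and 434, so the ratio was -1.11, -0.55, 1.60 and -0.48. Klf9, a further glucocorticoid-responsive gene, was at 144, 190, 384 and 172 in Olig, again highest in mouse 30. Fam102a and Map6d1 were lowest in the Olig sum of mouse 30, at 51.2 and 65.1, against 113 or more and 122 or more in the other mice. The summed red cell markers of mouse 30 were 623 in Olig against 107 to 186 in the others. Mouse 30 was also highest for them in OPC (642), Endo (611) and Astro (659), but not in COP, at 338 against 432 in mouse 3. What sets mouse 30 apart was not tested.

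**Figure D5:**
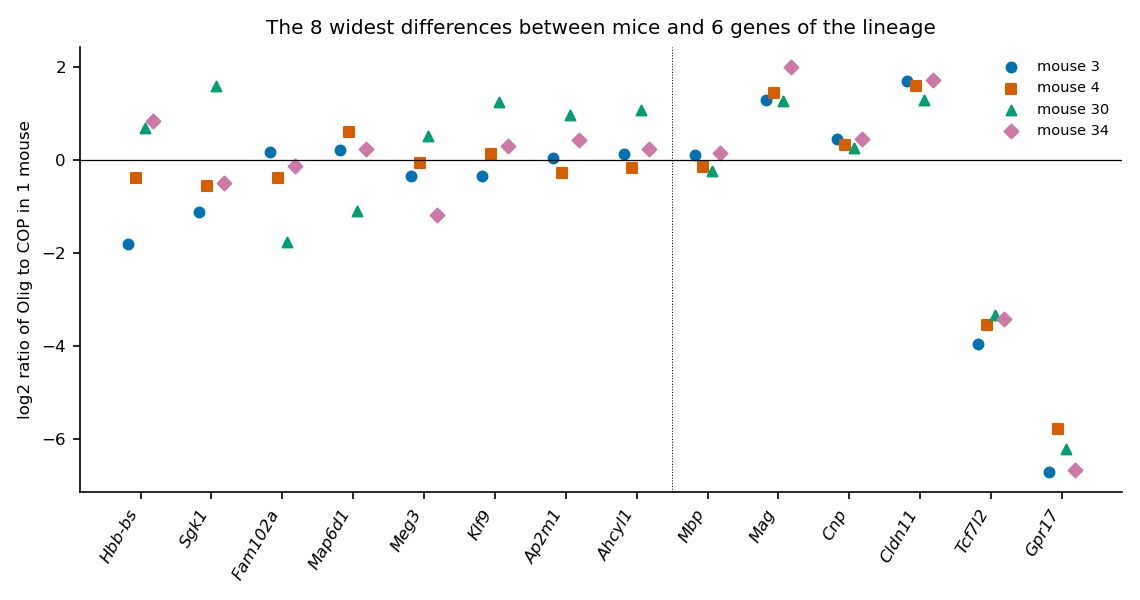
Log2 ratio of the Olig to the COP level in each mouse for the 8 genes with the widest spread over mice (left of the dotted line) and 6 genes of the lineage (right). Mouse 30 stands highest for Sgk1 and Klf9 and lowest for Fam102a and Map6d1, while Cnp stays between 0.26 and 0.47.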

How the data were processed

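Members and gene lists were chosen with earlier results of these data known. The authors deposited raw UMI counts per gene and cell for the 10x Genomics libraries, with a mitochondrial percent and a ribosomal percent, a doublet score given as a fraction, a silhouette score and other columns such as a type label. Per the labels, the submitters' processing notes name Cell Ranger 1.2 and Seurat, and builds GRCm38, mm10 and GRCh38 with no role, while how cells were aligned, filtered and labelled is not given in the sources used here. Cells of 12 libraries that match no labelled sample were left out. Counts were summed per mouse and label and tested with edgeR 4.0.16 (R 4.3.3; quasi-likelihood F test, TMM, filterByExpr, mouse as a block, Benjamini-Hochberg over 6209 genes). SEs came from the F statistic. Per-mouse log2 ratios add 10 UMIs per 1000000. Each mouse gave both sums, and across 1133 genes the deviations of Olig and COP from their means correlated at 0.55, 0.53, 0.32 and 0.33 in mice 3, 4, 30 and 34. On simulated data of this comparison (6209 genes, 200 changed in random directions), 84% of 2-fold and 100% of 4-fold changes passed the adjusted p. Of these changes 49% and 100% were called, a true 2-fold change lying on the call limit, and 0.667% of calls were false. In the data 3422 genes passed the adjusted p, and the simulation held no shift in scaling, so its rates need not hold here. P-values set the difference within mice against a spread that was estimated mostly across genes. Each gene had 3 residual degrees of freedom of its own beside a median of 66.1 borrowed from all genes. Very small p-values therefore do not measure the spread of 1 gene between 4 mice. Genes named are the 15 largest called differences each way at 100 UMIs per 1000000 in the higher type and in the same direction in each mouse, the 5 highest and every called member of a list, the tubulins, septins and Gpm6 genes, and the 8 with the widest spread between mice, and exceptions are stated. Some genes that meet this rule are not reported here. No doublet caller was run. Alternatives included DESeq2 1.42.0, other scalings, thinning, fits without mice or cells of doubtful quality, and 2 pairs of mice chosen after seeing the data.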

Additional observations from a re-analysis of the deposited data

Results flagged for a closer look

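Levels and shares of the 4 mice were screened for 1 mouse that stood apart, by Dixon's criterion on the gap to its nearest neighbour over the whole range. Of 327 values screened, 20 met this, near the 5% that chance gives, and mouse 30 was the one apart in 9 and mouse 4 in 7.
In mouse 30 the Olig levels of Sgk1 (1763, others 258 to 434), Tfrc (116, others 45.8 to 52.5), Frmd4a (69.8, others 42.5 to 45.5), Ap2m1 (216, others 174 to 179) and Tspan2 (1409, others 1368 to 1375) were high. The Olig level of Scd1 there was low (146, others 270 to 289). Its summed endothelial markers (99.99, others 59.9 to 62.9) and red cell markers (623, others 107 to 186) in Olig were high, as was Hmgb2 in COP (96.0, others 72.4 to 73.3). The red cell sum of mouse 30 was also highest in OPC (642), Endo (611) and Astro (659).
In mouse 4 the Olig levels of Fth1 (20137, others 9728 to 10235), Ppp1r14a (546, others 314 to 347) and Cacng4 (24.0, others 9.90 to 11.6) were high. In COP of the same mouse Mycl (441, others 290 to 314), Apoe (550, others 288 to 309), Kif19a (191, others 123 to 133) and the summed neuronal markers (283, others 112 to 123) were high. The neuronal sum was also highest in mouse 4 in OPC (514), Olig (462), Endo (487) and Astro (503).
Mouse 3 was highest for Gjc3 (634, others 587 to 591) and Slc24a2 (381, others 349 to 351) in Olig and for Enpp6 in COP (790, others 649 to 662), and mouse 34 was lowest for Tspan2 in COP (178, others 221 to 229).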

How the results depend on the processing

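The number of calls, 1683 (855 higher, 828 lower), moved with how many genes were tested. Sums thinned to equal totals gave 1051 (502 and 549) and equal cells per sum 840 (392 and 448), where 3566 and 2653 genes were tested. Without the filter on low counts, 14690 genes were tested and 2594 were called, 1431 of them higher. Leaving out 1 mouse gave between 1545 and 2098 calls, with 779 to 1084 higher, 766 to 1014 lower and 189 to 214 list members. Without the replicate block, which pairs the sums of a mouse, 1685 genes were called, 1665 of them shared with the paired fit, and Mbp was at 0.00023. Scaling by total UMIs alone moved the median of all genes from 0.01 to -0.27 and left 34.9% of calls higher in Olig against 50.8%. Mbp, not called, also changed sign without the filter (0.031), with OPC in the fit (0.0038), when mouse 4 or mouse 30 was left out (range over mice left out -0.077 to 0.072, with 0.007 without mouse 4) and in mice 3 and 34 alone (0.16), and Myrf with total UMIs (-0.14) and thinned sums (-0.050). Of 141 log2 fold changes, 133 kept their direction and side of the adjusted p in each of 16 settings that gave a value. The cause of the other changes was not tested. At the depth of these sums, 6209 of 16411 genes passed the filter and the others were not tested.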
